A study of Arabidopsis thaliana with 24 samples.

Results

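The response of wild-type Arabidopsis thaliana seedlings to 5 h of chilling was measured by comparing 3 libraries of Col-0 wild type (WT) held at 4 °C with 3 libraries of Col-0 kept at 19 °C, 6 of the 24 libraries of the series. Members were chosen by their labels alone, and all 17952 genes with values were compared. Every seedling was grown for 11 days at 19 °C in a photoperiod of 12 h and then spent 24 h in continuous light. The treatment began at ZT27, where ZT (zeitgeber time) counts hours from dawn. The 19 °C group received the same handling without the cold and was sampled in parallel, also under continuous light. Each library pooled 10 whole seedlings. Comparisons below also draw on sig5-3 (SALK_141383C), a single T-DNA insertion line of the plastid sigma factor gene SIG5, at both temperatures in the same time set and at 19 °C in the ZT45 set, and on WT in the ZT45 set at both temperatures, where the cold lasted 3 h. Whole seedlings mix roots and shoots, so fewer cells of a type and less RNA per cell cannot be told apart in any value below.

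Plants that meet low but non-freezing temperatures start cold acclimation. Its best known branch runs from the CBF transcription factors to protective proteins such as dehydrins and to raffinose sugars. Cold also slows enzymes and photosynthesis, alters membrane lipids, and changes the balance between sugar production and growth, and the genes of those processes are described here.

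A gene is said to have passed at an adjusted p under 0.05, and to have been called if it passed with a log2 fold change above 1.5 or below −1.5. Of 17952 genes, 833 were called (4.64%), 573 of them higher at 4 °C (3.19%) and 260 lower (1.45%). Without the fold threshold 10135 passed (56.5%), 4955 higher (27.6%) and 5180 lower (28.9%). Most of those differences were small, since 50.7% of the genes that passed changed by under 0.5 on the log2 scale. The groups did not overlap in 5888 genes that were higher (32.8%) and 6197 that were lower (34.5%). The median log2 fold change was −0.01. The split of higher and lower calls depended on scaling: when all libraries were set to equal totals, the median shifted by −0.14 and 3394 genes passed higher against 7539 lower, so 31.0% of the genes that passed were higher in place of 48.9%. Small differences in the lists below therefore depend on that choice, and counts under equal totals are given beside the lists that it moves. The counts of every list are to be read beside the shares of all genes, 27.6% passed higher and 28.9% lower, and 3.19% called higher and 1.45% lower.

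**Figure D1:**
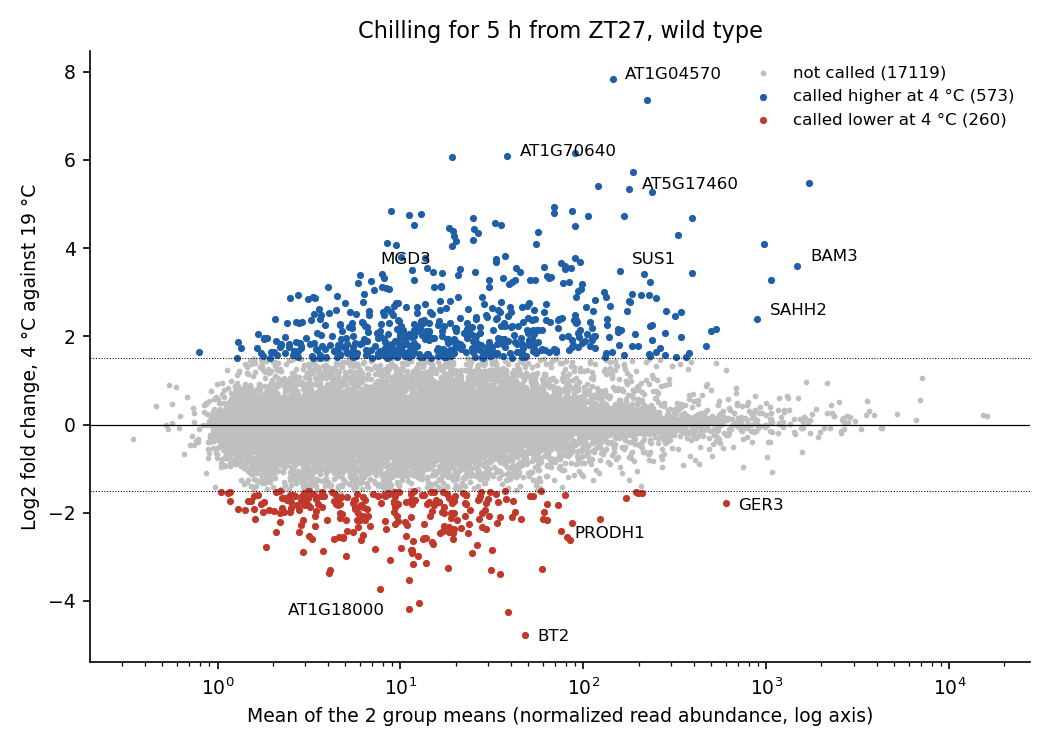
Log2 fold change of each of the 17952 genes at 4 °C against 19 °C (vertical axis) by the mean of the 2 group means in normalized read abundance (horizontal log axis), with dotted lines at the call threshold of 1.5. The 573 genes called higher reach further from 0 than the 260 called lower, and the most abundant genes lie near 0.

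The deposited values summed to 790711 to 839429 in the 19 °C libraries and to 882117 to 909903 in the 4 °C libraries. The 24 libraries of the series held an estimated 21275989 to 36441530 reads on these genes. Pearson correlations between the 6 libraries' replicates were at least 0.993. Of 6 mesophyll markers 2 rose and none fell (1 and none under equal totals), and their summed level was 29540 to 37070 at 19 °C and 36360 to 39660 at 4 °C. The sums were 67.9 to 82.2 and 83.1 to 93.4 for 6 guard cell markers, 792 to 1009 and 1051 to 1128 for 6 root markers, 189.9 to 205.7 and 199.8 to 203.9 for 5 vasculature markers, and 473.5 to 492.4 and 384.1 to 422.4 for 4 epidermis markers, in the same order of temperatures. Of the root markers 1 rose and 2 fell (none and 3 under equal totals). Most of the root sum was BGLU23, with means of 863.5 and 1026, which did not pass. SCR fell by 0.43 and GL2 by 0.38, and NRT2.1 rose by 0.51. Of the guard cell markers 2 rose and none fell, and of the vasculature markers none rose and 1 fell. Markers of all 5 tissues were present, although the root hair markers EXPA7 and COBL9 and the vessel factor VND7 had no values. Of the 4 epidermis markers 1 rose and 2 fell (none and 2 under equal totals). KCS10, an epidermal fatty acid elongase, fell by 0.89 and ATML1 by 0.28. ABCG12 rose by 0.25, and PDF1 did not pass (0.08). The part that shifts in tissue makeup may have in the results below was not tested.

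Beyond the well-known cold genes, the largest increases included several genes of little known function. AT1G04570, annotated as a major facilitator transporter, stood at 0.974, 0.573 and 0.743 in the 19 °C libraries and at 280.1, 293.5 and 290.7 in the 4 °C libraries. AT1G70640, a gene with a PB1 domain, went from 0.79, 0.619 and 0.483 to 74.6, 77.2 and 75.3 (log2 fold change 6.08 ± 0.14, SE). Every chilled library stood above every control library in both genes, but genes were listed among the largest changes only if their groups did not overlap. AT5G17460, annotated as glutamyl-tRNA(Gln) amidotransferase subunit C, had 7.45, 8.8 and 8.21 at 19 °C and 352.3, 344.3 and 347.1 at 4 °C (5.33 ± 0.1). The transcript of HVA22D, a member of a family of abscisic acid and stress induced membrane proteins, rose from 11.6 ± 0.897 (SD, n = 3) to 319.9 ± 6.48, and LEA3, a late embryogenesis abundant protein, from 5.39 ± 0.563 to 167.1 ± 9.51. Also among the 15 largest increases were AT1G51090, a heavy metal transport and detoxification family gene (4.79), the F-box gene AT4G34550 (4.78), the uncharacterized gene AT1G16850 (4.69), the pectin lyase-like gene AT1G48100 (4.57), the RCC1 family gene AT3G55580 (4.53) and the thaumatin family gene AT4G36010 (4.5). The pseudogene AT1G69140, which is transcribed, rose from 3.95 ± 1.17 to 133.6 ± 14.3.

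The deepest decrease was that of BT2 (AT3G48360; chromosome 3, 17907767 to 17910738, minus strand, TAIR10.1), a BTB and TAZ domain protein whose transcript is known to respond to sugar and nitrogen. Its values were 75.95, 92.7 and 110.8 at 19 °C and 3.05, 2.3 and 3.46 at 4 °C (−4.77 ± 0.16). AT5G22920, a CHY and RING zinc finger gene, went from 21.6, 25.4 and 26.1 to 0.856, 1.02 and 1.14 (−4.05 ± 0.16). J8, a small chloroplast DnaJ protein, had 44.7, 63.0 and 63.1 at 19 °C and 6.5, 4.47 and 5.12 at 4 °C, although J8 overlaps the gene AT1G80910 on the other strand by 224 bases, and the sources used here do not say whether reads were counted by strand. AT3G26510, a PB1 domain family gene, fell by 3.17, and the SAUR-like auxin-responsive gene AT4G38840 by 2.88. The protein kinase gene AT4G01330 went from 21.0, 20.6 and 20.7 to 2.17, 2.37 and 2.42. No 4 °C library reached the level of any 19 °C library in these genes, which was a condition for listing them.

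The promoters of 4 of these genes are shown as examples. They were chosen because they hold short motifs whose share differed between the directions of the response over all called genes. Each line gives the 250 bases before the gene start in the RefSeq annotation of TAIR10.1, 5′ to 3′ on the strand of the gene, and capitals mark every match to the 8 motifs described below, on either strand.
AT1G70640 (chr1:26635860-26636109, plus strand): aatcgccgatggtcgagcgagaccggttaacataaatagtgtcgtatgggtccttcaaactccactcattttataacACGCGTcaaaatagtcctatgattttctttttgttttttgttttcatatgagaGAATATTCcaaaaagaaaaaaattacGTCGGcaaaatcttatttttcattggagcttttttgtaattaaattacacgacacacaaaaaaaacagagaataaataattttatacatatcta
AT5G17460 (chr5:5759818-5760067, minus strand): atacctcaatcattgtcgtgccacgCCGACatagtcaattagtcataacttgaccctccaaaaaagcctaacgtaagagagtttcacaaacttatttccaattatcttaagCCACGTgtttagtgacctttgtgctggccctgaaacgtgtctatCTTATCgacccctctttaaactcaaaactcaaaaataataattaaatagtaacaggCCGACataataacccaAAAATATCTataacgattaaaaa
BT2 (chr3:17910739-17910988, minus strand): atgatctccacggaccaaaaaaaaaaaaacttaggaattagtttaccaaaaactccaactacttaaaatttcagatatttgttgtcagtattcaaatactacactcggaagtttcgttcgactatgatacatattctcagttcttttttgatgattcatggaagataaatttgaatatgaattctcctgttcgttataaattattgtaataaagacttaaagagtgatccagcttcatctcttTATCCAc
J8 (chr1:30404714-30404963, minus strand): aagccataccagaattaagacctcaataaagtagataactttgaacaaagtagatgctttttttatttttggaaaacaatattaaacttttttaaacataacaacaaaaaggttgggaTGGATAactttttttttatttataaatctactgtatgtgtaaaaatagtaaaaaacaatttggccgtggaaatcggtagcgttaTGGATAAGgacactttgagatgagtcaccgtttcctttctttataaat

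In 250 bases upstream, CCGAC, the core of the element bound by CBF proteins, was present in 25.48% of the promoters of called higher genes, 11.54% of called lower genes and 13.05% of all 17951 promoters read. ACGTGG, found in abscisic acid response elements and G-boxes, was present in 17.28%, 9.62% and 8.99%, in the same order. The evening element AAAATATCT, known from clock-controlled genes, was present in 8.55%, 1.92% and 2.54%. ACGCGG and ACGCGT, which hold the CGCG core that CAMTA factors bind, were rare, at 2.97% and 3.14% of called higher, 1.54% and 0.38% of called lower, and 1.89% and 1.75% of all. The reverse order was seen for TATCCA, an element described in sugar-repressed genes, at 12.57% of called higher, 23.46% of called lower and 14.17% of all, and for GATAAG, the I-box of light-regulated genes, at 9.95%, 22.69% and 12.28%. The matches to these motifs can share bases: 22 of the 260 called lower promoters held both and in 11 of them they did so, as in J8. AT5G17460 held CCGAC in 2 places together with ACGTGG, AAAATATCT and GATAAG, BT2 held 1 TATCCA, and J8 held TATCCA in 2 places, 1 of them joined to GATAAG. Among the 15 largest increases 7 promoters held CCGAC, and among the 15 largest decreases 1 did. The counts were 2 and 0 for ACGTGG, 2 and 1 for AAAATATCT, 1 and 5 for TATCCA, and 4 and 5 for GATAAG, in the same order. Both strands were searched, and a match is a description of sequence and not a site shown to be bound.

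Most genes of phosphate starvation rose. When phosphate is short, plants take up and release more of it and replace membrane phospholipids with galactolipids and sulfolipids. Of 10 such genes 9 rose and none fell, against 27.6% and 28.9% of all genes, and 6 were called higher, against 3.19%. The median was 1.67 against −0.01 for all genes, with 9 also higher under equal totals. SPX1, a phosphate sensor, had 22.3, 21.7 and 19.7 at 19 °C and 160.1, 156.3 and 165.6 at 4 °C (2.89 ± 0.16, adjusted p = 3.63e-12). MGD3, a monogalactosyldiacylglycerol synthase of phosphate-starved plants, had 2.4, 2.25 and 2.64 against 34.9, 31.5 and 28.1 (3.45 ± 0.14, adjusted p = 7.29e-16). PAP17, an acid phosphatase, went from 16.7, 16.1 and 12.5 to 97.1, 86.1 and 94.2. The chilled libraries lay above every control library in all 3 genes, and the 3 chilled values of a gene differed little. Of the enzymes that make phosphorus-free lipids, MGD2 rose by 1.93 ± 0.12 and SQD2, the sulfolipid synthase, by 1.41 ± 0.07. Of the transporters, PHT1;4, an uptake carrier, rose by 1.81 ± 0.12 and PHO1, which loads phosphate into the xylem, by 0.49 ± 0.08, while PHT1;1 did not pass (0.43 ± 0.19, adjusted p = 0.0555). The noncoding RNA AT4, known to sequester the microRNA of this pathway, rose by 1.54 ± 0.18. PHO2, a target of that microRNA and a ubiquitin-conjugating enzyme that removes phosphate carriers, rose by 1.17 ± 0.06. The 9 genes that rose therefore do not all act to raise phosphate uptake. AT4 kept its direction but not its call without replicate 2 of the 19 °C group (1.48).

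A trio of other genes tied to this process were picked after their values were seen. PS2, a phosphatase induced by phosphate starvation, stood at 2.56, 1.54 and 1.41 at 19 °C and at 50.4, 47.5 and 48.4 at 4 °C. G3Pp1, a glycerol 3-phosphate carrier, went from 13.7, 15.01 and 11.7 to 180.0, 174.5 and 178.3. DGD1, which makes digalactosyldiacylglycerol, a main lipid of chloroplast membranes, went from 28.4, 30.3 and 28.1 to 150.8, 146.6 and 152.8 (2.36 on the log2 scale). Each again showed no overlap between the groups. The PS2 promoter is shown for its match to P1BS, the element of the phosphate starvation regulator PHR1, searched as GNATATNC with N for any base.
PS2 (chr1:27466349-27466598, minus strand): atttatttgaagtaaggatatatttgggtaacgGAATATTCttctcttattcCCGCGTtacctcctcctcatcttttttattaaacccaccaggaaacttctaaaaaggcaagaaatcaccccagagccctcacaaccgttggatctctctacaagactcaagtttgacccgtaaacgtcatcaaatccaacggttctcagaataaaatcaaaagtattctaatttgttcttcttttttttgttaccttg

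P1BS, a motif added once the phosphate list was seen to have moved, was present upstream in 2 of the 10 phosphate promoters, in 9.42% of called higher genes, 8.46% of called lower genes and 5.49% of all.

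**Figure D2:**
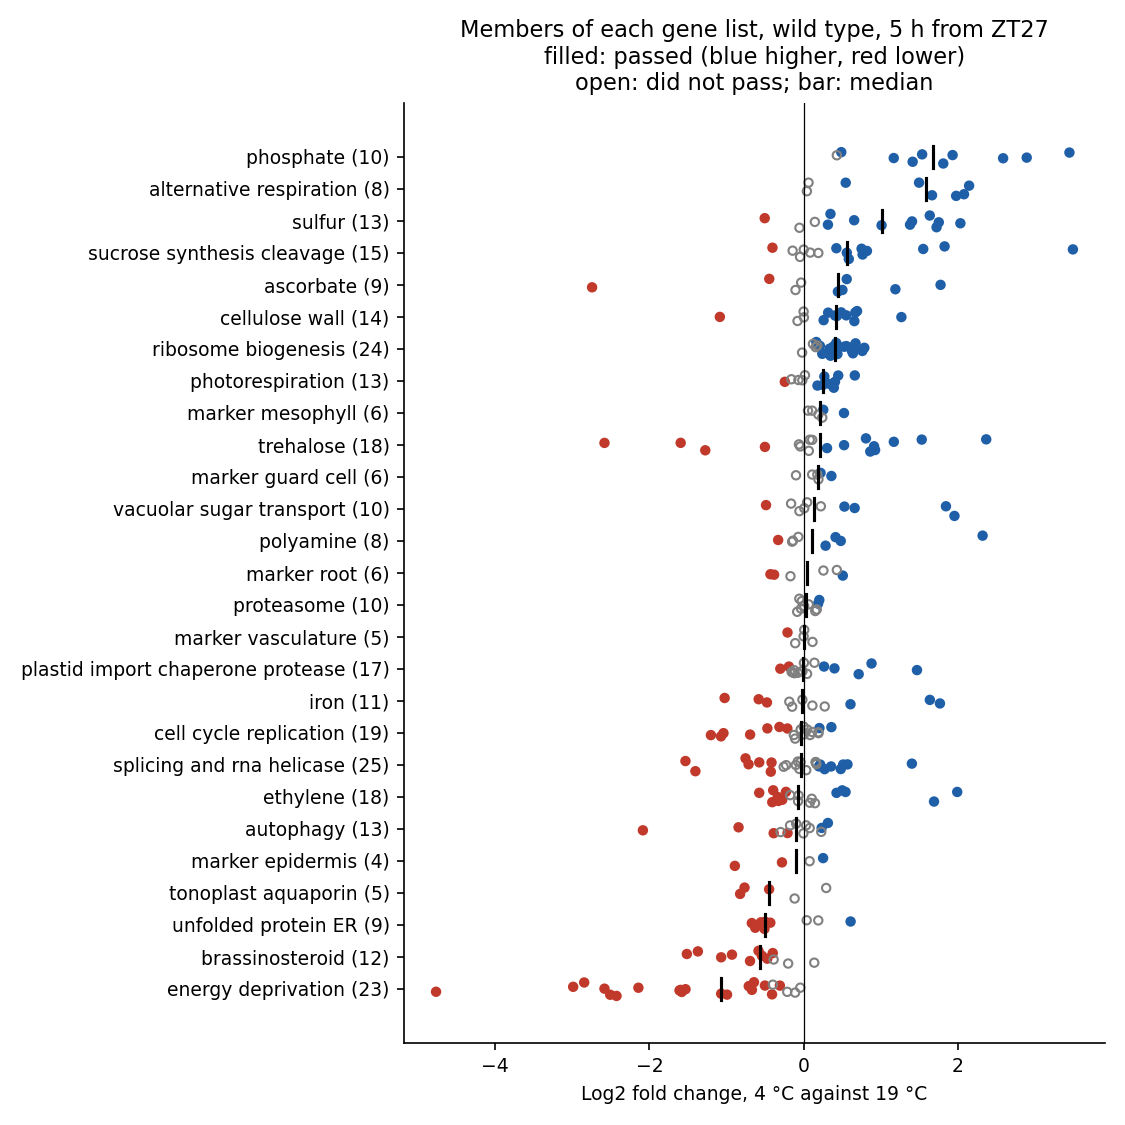
Log2 fold change at 4 °C against 19 °C (horizontal axis) of each member of 22 process lists and 5 tissue marker lists, 1 row for each list with the number of members that have values; filled points passed (blue higher, red lower), open points did not, and bars are medians. Phosphate, alternative respiration and sulfur genes lie mostly to the right, with medians of 1.67, 1.58 and 1.01, and energy deprivation genes to the left, with a median of −1.07.

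Genes that mark energy deprivation moved the other way. These genes rise in darkness or sugar starvation under the SnRK1 kinase and are repressed by sugar. Of 23 with values none rose and 19 fell, against 27.6% and 28.9% of all genes. Among the 23, 11 were called lower, against 1.45% of all genes. The median was −1.07, and 20 were lower under equal totals. After BT2, the deepest falls were in KMD4 (−2.99 ± 0.31) and KMD1 (−2.85 ± 0.18), F-box proteins that restrain cytokinin signalling and phenylpropanoid synthesis, TPS8, a trehalose phosphate synthase-like protein (−2.58 ± 0.13), and the senescence gene SEN1 (−2.51 ± 0.47). DIN10, a raffinose synthase-like gene of dark-treated leaves, had 167.4, 215.6 and 224.9 at 19 °C and 44.5, 44.0 and 47.0 at 4 °C. PRODH1, proline dehydrogenase, the first enzyme of proline breakdown, had 90.4, 145.9 and 149.7 against 24.1, 21.0 and 23.8. AKINBETA1, a subunit of the SnRK1 complex itself, fell by 1.61 ± 0.09. All 3 chilled libraries lay below all 3 controls in these genes. ASN1, asparagine synthetase (−0.4 ± 0.32), GDH2, glutamate dehydrogenase (−0.21 ± 0.12), TPS10 (−0.04) and the beta-glucosidase gene BGLU30 (−0.11) did not pass.

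The control libraries varied in this list. Replicate 1 of the 19 °C group was the lowest control in 21 of the 23 genes (91.3%), against 29.7% of all genes and 45.8% of called lower genes. SEN1, for example, was at 4.95 there and at 17.9 and 10.7 in the other controls. Without that library 21 genes of the list passed lower, and ASN1 then passed too (−0.76, adjusted p = 0.0456). BCAT2, a branched-chain aminotransferase, was called (−1.53) but was at −1.12 without replicate 2 of the 19 °C group, and between −1.47 and −1.46 without replicate 3 of that group or replicate 2 or 3 of the 4 °C group.

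**Figure D3:**
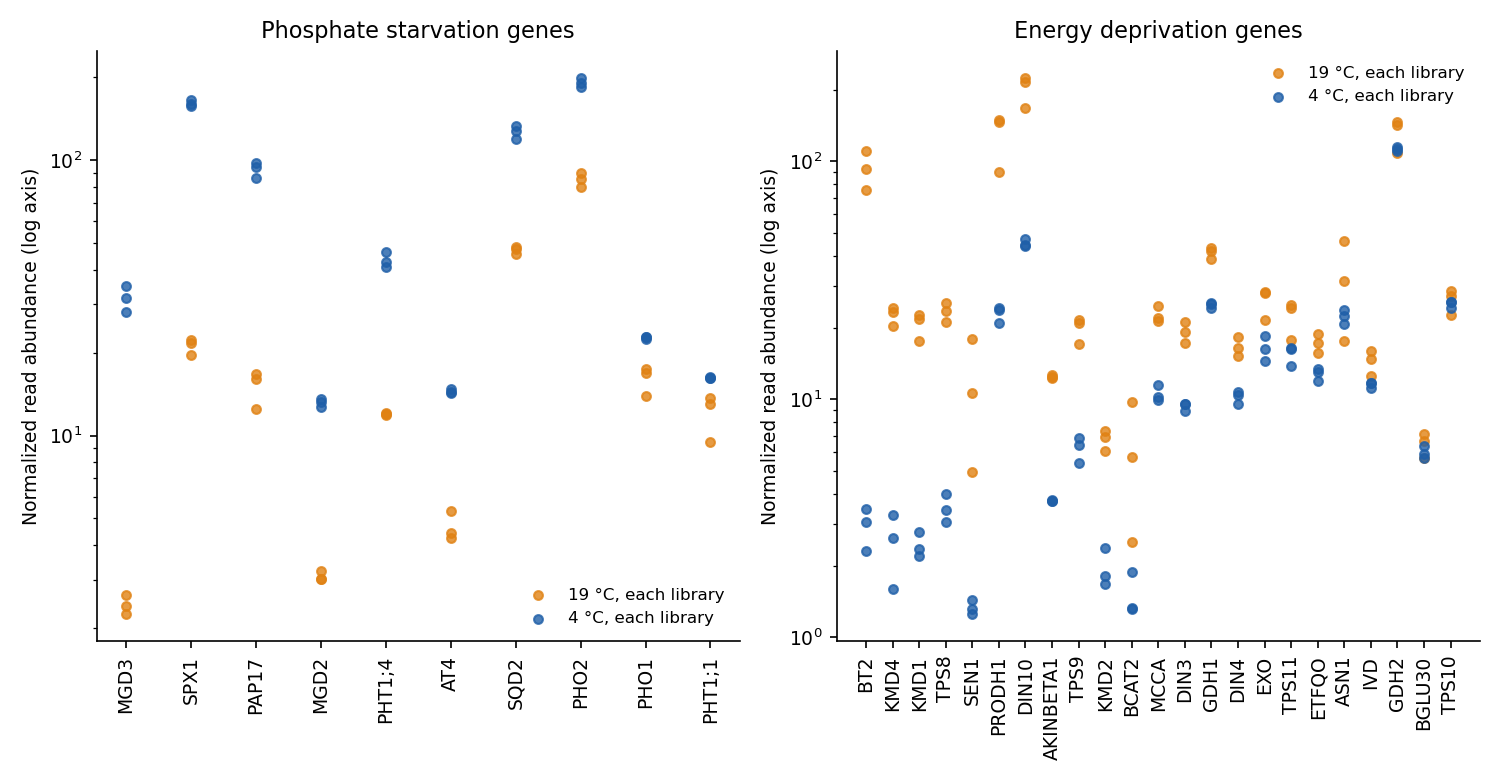
Normalized read abundance (vertical log axes) of phosphate starvation genes (left) and energy deprivation genes (right) in each of the 3 libraries at 19 °C (orange) and the 3 at 4 °C (blue). Chilled values lie above the controls in 10 of 10 phosphate genes, against 32.8% of all genes, and in BT2 they lie at 2.3 to 3.46 against 75.95 to 110.8.

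Carbon metabolism genes whose transcripts changed included genes of sucrose and trehalose metabolism. Of 15 genes of sucrose synthesis and cleavage 9 rose and 1 fell (median 0.56), against 27.6% and 28.9% of all genes. In this list 3 were called higher, against 3.19% of all genes. SUS1, a sucrose synthase, had 29.5, 22.6 and 24.2 at 19 °C and 288.7, 285.8 and 294.0 at 4 °C (3.49 ± 0.11). SPS2F, a sucrose phosphate synthase, rose by 1.83 ± 0.07, the more abundant form SPS1F by 0.75 ± 0.07, and UGP1, which makes UDP-glucose, by 1.55 ± 0.07. The neutral invertase gene CINV1 fell by 0.4 ± 0.09. Under equal totals 3 of these genes were lower in place of 1, and UGP1 was no longer called (1.41).

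Of 10 sugar transport genes, listed for the vacuole but with the vasculature marker SUC2 among them, 4 rose and 1 fell (4 and 2 under equal totals). TMT2, which loads sugars into the vacuole, went from 46.3, 45.5 and 44.8 to 177.9, 185.1 and 171.2, and ESL1, a sugar facilitator of the same membrane, from 7.65 ± 0.244 to 28.8 ± 0.588, whereas TMT1 did not pass (0.05 ± 0.1). Of 18 genes of trehalose metabolism 9 rose and 4 fell (8 and 4 under equal totals), and the split ran between genes of the same family. TPPI and TPPE, trehalose phosphate phosphatases, rose by 2.37 and 1.53, and TPPH fell by 1.27. TPS1, the active synthase, rose by 0.52 ± 0.06 and TPS5 by 0.86 ± 0.08, and TPS8, TPS9 and TPS11 fell by 2.58, 1.59 and 0.5. GBSS1, the starch synthase that makes amylose, rose from 11.9 ± 3.19 to 146.9 (3.6), a gene picked after its value was seen.

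Most genes of a list of respiratory bypasses and other mitochondrial proteins rose. The alternative pathway carries electrons in plant mitochondria without building the proton gradient in full. Of 8 genes 6 rose and none fell (median 1.58), against 27.6% and 28.9% of all genes, with 6 higher under equal totals. In this list 4 were called higher, against 3.19% of all genes. Those called include DIC1 and OM66, which do not carry electrons. DIC1, a dicarboxylate carrier, had 17.8, 17.7 and 17.95 at 19 °C and 83.5, 80.6 and 77.5 at 4 °C, and NDA1, an internal alternative NAD(P)H dehydrogenase, had 17.9, 17.2 and 21.5 against 81.7, 81.2 and 80.2. Both genes were several times as high in every chilled library as in any control. OM66, an outer membrane AAA ATPase, rose by 1.98 ± 0.2, NDB2, an external dehydrogenase, by 1.67 ± 0.12 and the alternative oxidase AOX1A, just short of a call, by 1.497 ± 0.1. NAC13, a transcription factor of mitochondrial stress picked from its family after the values were seen, rose from 6.53, 7.24 and 8.55 to 39.4, 38.3 and 37.8 (2.3).

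Sulfur starvation and assimilation genes also rose, 10 of 13 with 1 lower (median 1.01, and 9 and 1 under equal totals). GGCT2;1, which breaks down glutathione for recycling, had 6.11, 4.65 and 3.87 at 19 °C and 22.3, 21.0 and 20.3 at 4 °C. LSU2 and LSU1, small proteins named for their response to low sulfur, rose by 1.75 ± 0.19 and 1.72 ± 0.21, and SDI1, known to hold back glucosinolate synthesis, by 1.64 ± 0.24. The sulfate-reducing enzyme genes APR2, APR3 and APR1 rose by 1.38, 1.01 and 0.66, and the hydroxymethyltransferase SHM7 by 1.41. The vacuolar sulfate exporter gene SULTR4;2 fell by 0.5 and the uptake carrier gene SULTR1;2 did not pass (−0.05 ± 0.12). SDI1 and LSU1 stood below 2.5 in every control library, and with a pseudocount of 2 neither was called (1.24 and 1.18).

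Among 9 ascorbate genes, 5 rose and 2 fell (5 and 3 under equal totals). VTC2, the committed step of vitamin C synthesis, went from 83.5, 91.8 and 92.0 to 319.7, 298.7 and 299.9, and VTC1, an earlier enzyme, rose by 1.19 ± 0.05. The VTC2 homologue VTC5 fell by 0.45 ± 0.07, and MIOX2, an inositol oxygenase, fell by 2.74 ± 0.31, with control values of 27.9, 50.8 and 60.3. Of 8 polyamine genes 4 rose and 1 fell, 3 and 4 under equal totals. SAMDC2, an S-adenosylmethionine decarboxylase, led with 30.4 ± 0.343 (SD, n = 3) at 19 °C and 153.9 ± 6.96 at 4 °C (2.32 ± 0.07), and the arginine decarboxylases ADC1 and ADC2 rose by 0.41 and 0.48. Of 11 iron genes 3 rose and 3 fell (2 and 4 under equal totals). The iron uptake genes FRO2 and IRT1 rose by 1.77 ± 0.35 and 1.64 ± 0.45 at low values, below 1 in every control library, and neither was called with a pseudocount of 2 (1.09 and 0.95). IRT1 was also not called without replicate 3 of the 4 °C group (1.42).

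Hormone genes moved in both directions. ATGA2OX1, a gibberellin 2-oxidase that destroys active gibberellin, was at 0.5, 0.596 and 0.483 at 19 °C and at 22.3, 22.6 and 24.3 at 4 °C (4.52 ± 0.19). A trio of abscisic acid 8′-hydroxylase genes, which start the breakdown of that hormone, were called within the cytochrome P450 family, a family counted after the values were seen. CYP707A2 went from 5.29, 5.07 and 5.5 to 60.0, 55.1 and 52.2, CYP707A3 from 1.13, 1.28 and 0.818 to 14.4, 16.3 and 14.96, and CYP707A1 from 1.87, 2.02 and 2.49 to 13.5, 14.0 and 14.96. No control library came near a chilled one in these 4 genes, which were chosen by their values. Of 120 cytochrome P450 genes as a whole 31 rose and 55 fell (26 and 68 under equal totals). Brassinosteroid genes fell in 9 of 12 cases with none higher (median −0.56, and 11 lower under equal totals). CPD, an enzyme of brassinosteroid synthesis, had 79.2, 79.5 and 78.7 against 30.2, 31.3 and 29.4, and BR6OX2, a late enzyme, fell by 1.07. BAS1, which inactivates the hormone, fell by 1.51 and the transcription factor BES1 by 0.93. The BAS1 call, at values near 5 and below, was lost without replicate 1 or 3 of the 19 °C group or replicate 2 of the 4 °C group (−1.49, −1.44 and −1.45). Of 18 ethylene genes 5 rose and 7 fell (4 and 8 under equal totals), and those called were the synthase genes ACS6 (1.69 ± 0.15) and ACS2 (1.99 ± 0.28).

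Genes annotated as UDP-glycosyltransferases, many of which attach sugars to hormones and secondary metabolites, moved in both directions. Of 91 genes 34 rose and 33 fell (32 and 38 under equal totals). In the family 14 were called higher and 6 lower, which is 15.4% and 6.59% against 3.19% and 1.45% of all genes. The family was chosen after the values were seen. Members were taken by their annotated product, so the 14 include GBSS1 and DGD1, described here under starch and membrane lipids. UGT78D3, which acts on flavonols, stood at 0.316, 0.298 and 0.372 at 19 °C and at 21.8, 20.4 and 23.3 at 4 °C. UGT78D2 of the same group went from 17.4, 19.2 and 20.1 to 181.8, 173.4 and 176.1. UGT84A2, which acts on sinapate, went from 36.9, 35.1 and 37.5 to 397.8, 387.8 and 391.5. In the other direction, UGT85A5 went from 7.98, 8.21 and 7.36 to 0.428, 0.35 and 0.272, and UGT85A2 from 56.5, 56.0 and 57.6 to 13.5, 13.1 and 12.0. All 5 of these UGT genes showed no overlap between temperatures.

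Ribosome biogenesis genes rose by small amounts. Of 24 ribosome biogenesis genes 20 rose and none fell, yet none was called and the median was 0.4 (0.26 under equal totals, with 16 higher and 1 lower). The largest were APUM23, an rRNA processing factor (0.79 ± 0.07), the nucleolar helicase RH7 (0.76 ± 0.06), NMD3, an export factor of the large subunit (0.76 ± 0.05), and REIL2, a late maturation factor known for cold growth (0.63 ± 0.06). Ribosomal protein genes as a family stayed near 0 in the median (0.01 over 349 genes), 39 higher and 53 lower, and 17 and 148 under equal totals. Of 25 splicing and RNA helicase genes 8 rose and 7 fell, but under equal totals 5 were higher and 13 lower. Splicing factors in that list moved apart: RS40 went from 61.4, 57.2 and 58.6 to 157.9, 156.4 and 157.0, while SCL33 fell by 1.53 ± 0.11 and SR45A by 1.4 ± 0.14.

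Growth genes gave a mixed picture. Of 14 genes of cellulose and wall synthesis 10 rose and 1 fell (median 0.42, and 10 and 2 under equal totals). CESA5, a subunit of the cellulose synthase of primary walls, had 107.9, 94.9 and 94.1 at 19 °C and 243.6, 245.9 and 226.5 at 4 °C, CESA2 rose by 0.66 and COB, which orients cellulose, by 0.67. CESA7 and CESA8 of secondary walls were at 0 on the log2 scale with errors of 0.09 and 0.1. The xyloglucan synthase gene CSLC4 fell by 1.09. Of 19 cell cycle and replication genes 2 rose and 7 fell (none and 10 under equal totals), and the deepest falls were in the cell cycle inhibitors SMR1 (−1.2 ± 0.12), KRP1 (−1.07 ± 0.14) and KRP2 (−1.04 ± 0.1). Of 5 tonoplast aquaporins, the water channels of the vacuole, 3 fell, with TIP1;1 at 252.0, 258.2 and 218.6 against 133.4, 142.9 and 134.1. Among families counted after the values were seen, 31 of 42 histone genes fell and 3 rose (median −0.47), 8 of 13 tubulin genes fell and 2 rose, and 16 of 29 SAUR-like genes fell and 5 rose, with 35, 10 and 20 lower under equal totals. MATE transporters went the other way, with 25 of 36 higher and 1 lower (21 and 5 under equal totals). Copies within the histone and tubulin families are nearly identical, so their separate values are uncertain.

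Among genes of protein turnover and folding, the proteasome list depended on scaling. Of 10 proteasome genes 2 rose and none fell, but under equal totals none was higher and 5 were lower. Of 13 autophagy genes 2 rose and 4 fell (none and 6 under equal totals), led by ATG8E, which coats autophagosomes, at 13.9, 15.4 and 17.9 against 3.37, 2.9 and 3.71. Of 17 genes of plastid import, chaperones and proteases 5 rose and 2 fell (4 and 9 under equal totals). FTSH8, a protease that repairs photosystem II, went from 68.4, 74.0 and 69.0 to 202.3, 189.6 and 196.2, and the chaperone CLPB3 rose by 0.88 ± 0.05. Of 9 genes of the unfolded protein response in the endoplasmic reticulum 6 fell and 1 rose (median −0.50), with the same counts under equal totals. The chaperones BIP1 and BIP2 fell by 0.67 and 0.63, although their near-identical sequences leave the split of reads uncertain, and BZIP60, a transcription factor of that response, rose by 0.61 ± 0.09. Of 13 photorespiration genes 8 rose and 1 fell, but 5 rose and 4 fell under equal totals, and none was called.

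The called genes took up a larger share of the measured transcript pool in the cold. The 573 genes called higher made up 1.13 to 1.22% of the summed values in the 19 °C libraries and 6.2 to 6.4% in the 4 °C libraries. The 29 best known cold genes, 27 of them called, went from 0.119 to 0.132% up to 1.47 to 1.49%, so most of the gain lay in the other 546, which went from 1.02 to 1.1% up to 4.74 to 4.91%. The 260 genes called lower went from 0.975 to 1.07% down to 0.225 to 0.23%. These shares follow from how the genes were chosen and carry no test. Among called genes outside the best known cold list, the largest single gain in mean value was that of the plastid beta-amylase BAM3 (CT-BMY), from 251.6, 223.8 and 199.2 to 2742, 2784 and 2668. SAHH2, which recycles S-adenosylhomocysteine in the methyl cycle, followed with 291.1, 285.6 and 281.8 against 1477, 1526 and 1482. Next were the fatty acid desaturase ADS2 (192.6 ± 10.2 to 868.8 ± 18.7), the nitrate remobilisation carrier NRT1.7 (65.8 ± 6.18 to 714.8 ± 25.9), ERD4 (210.1 ± 14.6 to 726.8 ± 17.0), the phenylalanine ammonia-lyase PAL2 (98.1 ± 5.25 to 581.5 ± 3.86), AT5G35970 (137.9 ± 6.34 to 548.8 ± 13.8) and ENODL2 (185.1 ± 19.3 to 570.3 ± 20.9). The largest losses among called genes were those of the germin-like gene GER3, from 966.8, 918.8 and 897.3 to 267.0, 284.9 and 252.5, and AT5G24490, a 30S ribosomal protein gene, from 317.6, 318.8 and 299.2 to 96.7, 104.6 and 115.9. AT5G24490 lay just past the threshold (−1.56) and just short of it without replicate 1 of the 4 °C group (−1.497). Losses followed in PATL1, AT5G44020, CCL, DIN10, BBD1 and AT1G56220. In each all chilled libraries lay below all controls, which was a condition for listing them.

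Among 437 genes that do not code for protein, 17 were called higher and 7 lower, and of 217 annotated as long noncoding RNAs (lncRNAs) 12 were called higher and 4 lower. That is 7.37% of the lncRNAs and 5.49% of all 437 genes, against 4.62% of the protein-coding genes. All 16 called lncRNAs overlap a gene with values on the other strand by at least 100 bases, and all 16 had the same sign as that gene, which passed in the same direction in 14 cases and was itself called in 10. AT3G51238 rose by 3.46 and F3H, the flavonoid gene it overlaps by 1588 bases, by 3.2. AT3G09275 fell by 2.9 and KMD4, which it overlaps by 1389 bases, by 2.99. AT4G06665 had values of 0.0177, 0.0105 and 0.117 at 19 °C, around or below the worth of 3 reads in those libraries (0.0688 to 0.1115), and of 56.3, 24.4 and 34.6 at 4 °C, and overlaps BAM3 by 518 bases. Over all 150 lncRNAs with such an overlap, 111 (74.0%) had the sign of the gene on the other strand, and the correlation of log2 fold changes across these pairs was r = 0.754 (0.498 over the 134 pairs whose lncRNA was not called). Pairs are not replicates, both members come from the same libraries, and the libraries were made with a stranded kit. The sources used here do not say if strand was used in counting, so reads of a gene and of its partner cannot be told apart. The same holds for APR2, BES1 and AT1G48100 above, which overlap a gene with values on the other strand by 782, 818 and 802 bases.

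**Figure D4:**
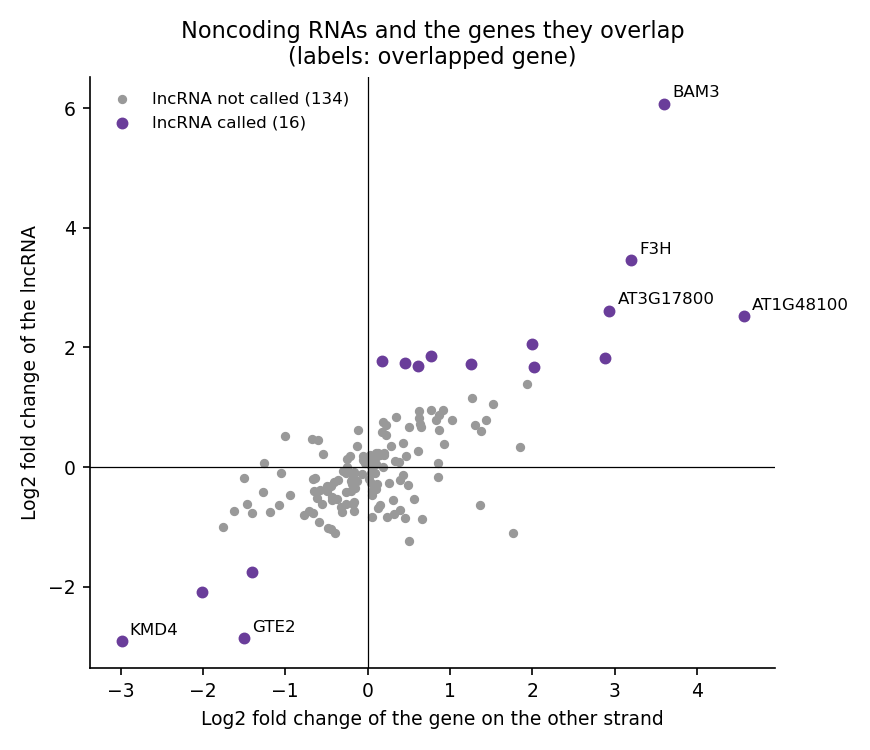
Log2 fold change at 4 °C against 19 °C of each of 150 lncRNAs (vertical axis) and of the gene with values that it overlaps on the other strand by at least 100 bases (horizontal axis). The 16 called lncRNAs (purple) have the same sign as that gene, which passed in 14 of the 16 pairs, and some lie close to the vertical line at 0.

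The same treatment was measured in 6 libraries of sig5-3 that share no sample with the WT comparison, where 899 genes were called (5.01%), 600 higher (3.34%) and 299 lower (1.67%), and 29.6% of all genes passed higher and 30.4% lower. Of the 573 genes called higher in WT, 566 (98.8%) also passed higher in sig5-3 and 515 (89.9%) were called there. All 260 genes called lower passed lower in sig5-3 and 235 (90.4%) were called. Across all 17952 genes the log2 fold changes of both genotypes had a Pearson r of 0.956, a description over genes that share their libraries. No gene passed the test of a difference in response between the genotypes by limma, with 1782 genes (9.9%) at an unadjusted p under 0.05, and 2 genes passed without replicate 1 of sig5-3 at 4 °C, which lies apart from its group. The lncRNA AT4G06665, which rose by 6.07 ± 1.09 in WT and was at 1.98 in sig5-3, lay farthest from equality among the genes called higher.

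**Figure D5:**
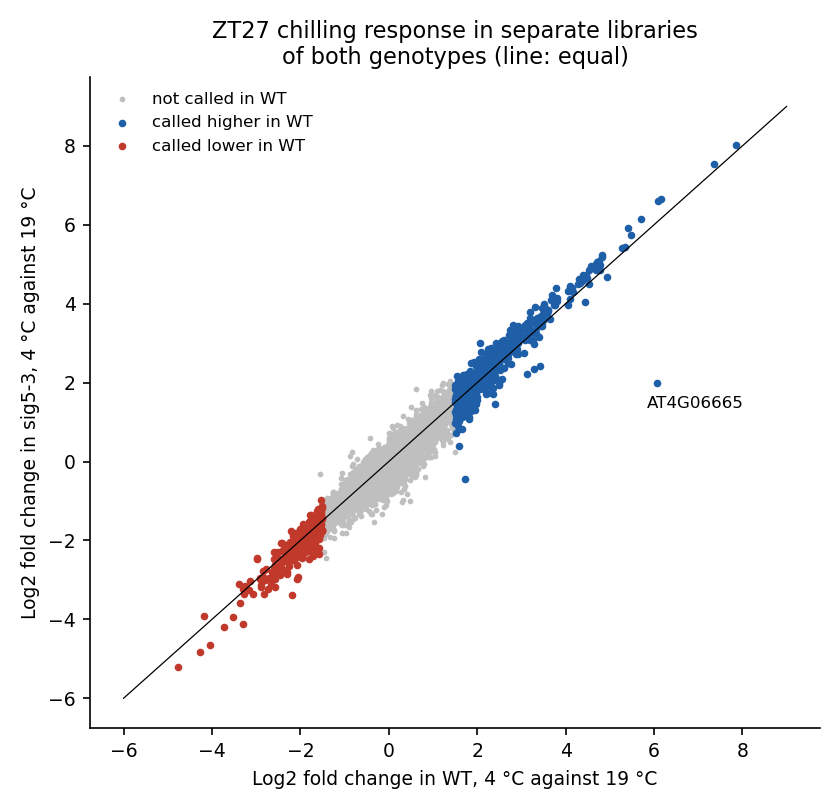
Log2 fold change of the 17952 genes at 4 °C against 19 °C in WT (horizontal axis) and in sig5-3 (vertical axis), from separate libraries, with the line of equality. The genes called in WT, 573 higher (blue) and 260 lower (red), lie along the line, and AT4G06665 stands below it.

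In the ZT45 set, where WT seedlings were chilled later and for 3 h, 228 genes were called (1.27%), and start time and length of chilling cannot be told apart. Of the genes called higher at ZT27, 468 (81.7%) passed higher at ZT45 and 10 passed lower, and of those called lower 239 (91.9%) passed lower and 6 passed higher. Of all genes 20.2% passed higher and 15.5% lower at ZT45. Their medians were 2.03 at ZT27 and 0.87 at ZT45 for the higher genes, and −1.91 and −1.11 for the lower genes. The genes were chosen by their ZT27 values, so the smaller ZT45 medians are a description, and the tests of the difference below use the same ZT27 libraries. The difference of both responses passed for 4716 genes (26.3%) and was called for 285 (1.59%). It also passed for 10 of the 13 sulfur genes, of which 2 rose and 5 fell at ZT45, with SDI1 at 1.64 and −0.92 and LSU1 at 1.72 and −0.69 in the order of the sets. It passed for 10 of the 14 cellulose and wall genes, and for NDA1, which was at 2.08 and −0.07, and SUS1, at 3.49 and 0.68. For SPX1 (2.89 and 2.61, adjusted p = 0.389) and TPS8 (−2.58 and −2.5, adjusted p = 0.8) it did not pass. Of the 260 called lower genes, 128 (49.2%) were also lower at 19 °C in the ZT45 set than in the ZT27 set of sig5-3, against 20.4% of all genes, and 41 (15.8%) were higher, against 22.1%. Of the 573 called higher genes, 279 (48.7%) were higher and 141 (24.6%) lower in that comparison of hours, which shares no library with the WT comparison.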

How the data were processed

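Messenger RNA was measured in 24 libraries by sequencing, and this comparison used the 3 WT libraries at each temperature of the ZT27 set. Reads were trimmed in Partek 6.6 and aligned with STAR 2.4.1d to a genome called TAIR11, per the series' design text, but the sources used here name neither the gene counting step nor the scaling. The authors deposited a signal per gene: a read abundance scaled within each library and not divided by gene length. Among values under 30, 88.9 to 91.4% per library were whole multiples of the worth of 1 read, within 0.05 of a read. The rest were fractional, so whole reads were not rebuilt. Of 37336 genes 17952 had values, and the others, with all 133 plastid-encoded genes among them, were not analysed here.

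A count test had been planned for the case of raw counts, and the planned test for normalized values was used. Values entered as log2(value + 0.5), a scale that understates changes of low genes, and fitted with limma 3.58.1 in R 4.3.3 to all 24 libraries as 8 group means, with 16 residual degrees of freedom, a mean trend and robust moderation. Adjusted p-values are Benjamini-Hochberg values over the 17952 genes. No gene was filtered out. The threshold of 1.5 comes from the series' design text. Errors are SE of the fit for log2 fold changes and SD over 3 libraries for means, and read floors cover counting error only. The fit was tested on simulated data. TMM factors were computed from the values by the published formula. Tables and figures were made in Python 3.11.15 (matplotlib 3.10.9, numpy 2.4.6, pandas 2.3.3).

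Names, gene types, promoters and TAIR10.1 coordinates came from NCBI RefSeq, which matched all 17952 genes. Genes were named if they were among the 15 largest changes each way, or the 8 largest differences in mean each way, among those called whose groups did not overlap and whose mean reached 10, best known cold genes set aside, or if they were members of a list. Samples and lists were chosen with earlier results of these data known. Families, P1BS, equal totals and the genes said to be picked later were chosen after the values were seen. Replicate numbers did not pair the libraries: deviations of same-numbered libraries correlated at −0.035, −0.195 and 0.05. Alternatives were other libraries in the fit, each library left out, the replicate block, pseudocounts, a filter on low values, scalings, the variance model and the thresholds.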

Additional observations from a re-analysis of the deposited data

Results flagged for a closer look

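The WT chilling response differed between the ZT27 and ZT45 sets for 285 genes by more than 1.5 on the log2 scale in the test of the difference itself, and 5 named genes called at ZT27 passed in opposite directions in the 2 sets. AT3G62550, annotated as an adenine nucleotide alpha hydrolase-like gene, was at −3.29 after 5 h from ZT27 and at 0.42 after 3 h from ZT45, a difference of −3.71. The germin-like gene GER3 was at −1.79 and 0.84, a difference of −2.63. CCL, a gene with a short-lived transcript, was at −1.67 and 0.76, a difference of −2.43. The sulfur genes SDI1 and LSU1 went the other way, SDI1 at 1.64 and −0.92, a difference of 2.56, and LSU1 at 1.72 and −0.69, a difference of 2.42.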

How the results depend on the processing

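Counts of called genes kept within 1.5 times of 573 higher and 260 lower under most alternatives. With a pseudocount of 2 they were 433 and 142, and with a fold threshold of 1 in place of 1.5 they were 1096 and 694. Under equal totals they were 484 and 333, where the median over all genes shifts by −0.14, and 3 list genes that had stood just above 0 passed as lower: APE2 was at −0.14 (adjusted p = 0.0137), PAG1 at −0.14 (adjusted p = 0.0287) and CLPC1 at −0.14 (adjusted p = 0.00538). The test of a genotype difference in the response gave 2 genes in place of 0 without the sig5-3 library at 4 °C, replicate 1, that stands apart from its group. Leaving out 1 of the 6 libraries in turn gave 556 to 598 called higher, 248 to 270 called lower and 9199 to 9464 passed, against 10135. With the replicate block 572 and 260 genes were called and 10003 passed, and the numbers do not pair the libraries. Of the named genes 24 lost their call or test with a pseudocount of 2 and 34 under equal totals, while 39 gained one under equal totals. TPPE was no longer called without replicate 2 of the 19 °C group (1.49), and SCL33 without replicate 3 of it (−1.495). The cause was not tested. When promoters were read over 300 bases, 50 of them past the gene start, GATAAG was present in 11.52% of called higher, 28.08% of called lower and 14.76% of all promoters, and CCGAC in 29.49%, 13.85% and 16.47%. Depth limits genes at the lowest values, where 3 reads are worth 0.0688 to 0.1115.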

Other observations

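Families not described above, counted after the values were seen, gave further values. Of 233 pentatricopeptide repeat genes, whose proteins process organelle RNA, 26 rose and 97 fell with none called (15 and 120 under equal totals). Of 139 F-box genes, which select proteins for degradation, 23 rose and 58 fell (19 and 74). AT2G16365 rose from 42.6 ± 1.44 (SD, n = 3) to 145.1 ± 2.89. The deepest fall of the family was in AT1G23390, from 74.4 ± 4.96 to 3.4 ± 0.0739 (−4.26), and AT3G23880 fell from 3.89 ± 0.394 to 0.302 ± 0.0415. Of 41 WRKY transcription factor genes 24 rose and 8 fell (19 and 10), with WRKY18 at 9.14, 11.8 and 10.0 in the 19 °C libraries and at 41.4, 38.5 and 38.2 in the 4 °C libraries. Of 41 NAC transcription factor genes 21 rose and 8 fell (13 and 9), and NAC041 fell from 8.75 ± 0.401 to 2.21 ± 0.144. Of 59 RNA helicase genes 26 rose and 7 fell, but under equal totals 17 rose and 16 fell.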
